A study of Mus musculus with 10 samples.

Results

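The cilium of the photoreceptor was followed through 34 genes whose products build, load or gate it, chosen by name for their role. All 34 were found among the 35275 genes of the deposited count table, all 34 were protein-coding, and all 34 were among the 17435 genes tested. By role they were 10 subunits of the IFT-B complex, 6 of the IFT-A complex, 2 motor genes, 7 core subunits of the BBSome, 3 genes for BBSome assembly and recruitment, 5 genes of the transition zone and connecting cilium, and Tulp1. RNA came from whole retinas of C57BL/6 mice aged 10 to 12 weeks, with 5 vehicle libraries and 5 libraries of a vigabatrin group, dosed for 11 days at 140 mg/kg/day through subcutaneous osmotic pumps. The drug, used against epilepsy, inhibits GABA transaminase, and visual field loss is among its known adverse effects. The treatment label of the control libraries reads vehicle, whereas their titles read untreated, and nothing in the labels ties each library to its own mouse. The p-values therefore reflect only the variation among these 10 libraries, which are called here by their group and title number.

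The outer segment of a rod or cone is a modified primary cilium, joined to the cell body by a narrow connecting cilium. Intraflagellar transport moves cargo along the microtubules of the cilium: IFT-B trains travel outward on kinesin-2 motors, and IFT-A serves the return journey and the entry of membrane proteins. The BBSome is an adaptor that removes membrane proteins from the cilium, and the transition zone at its base controls what enters. Mutations in many of these genes cause retinal degeneration, alone or as part of syndromes such as Bardet-Biedl syndrome and Joubert syndrome.

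Many ciliary genes carry an X-box, the site bound by RFX transcription factors, near their start, so the promoters were searched for it. Of the 34 genes, 31 matched by symbol to RefSeq promoter sequences of GRCm38.p6 (250 bases before the start and 50 after it, with 35 promoters in all), and Ift80, Ift81 and Ift122 did not. The X-box core GTTGCC, on either strand, was found for 12 of 31 genes (38.7%) against 3821 of 27025 genes in the table (14.1%). In Bbs7 the core overlaps a full site, GTTNCC and GGNAAC with 0 to 3 bases between them, found for 2 of the 31 genes (6.45%) against 0.936% of all genes in the table. TAATCC, a site of the photoreceptor homeodomain factor CRX, was found for Bbs1 and Rpgrip1, 2 of 31 genes (6.45%, against 8.14%). These matches describe the letters of the windows, and base composition was not matched between the genes compared. Sites more than 50 bases before the start are shown for 4 genes as windows of 30 bases on the gene's strand, with the full site in capitals for Bbs7 and the core in capitals for the others:
Bbs7: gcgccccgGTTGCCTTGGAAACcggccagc
Kif17: gacgtcacggagGTTGCCcagcaacggcga
Kif3a: caccccgcaggcGTTGCCccagtctagcgt
Ift140: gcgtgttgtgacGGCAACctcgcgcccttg

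The Bbs7 window is chr3:36613489-36613518 on the minus strand, and its site begins at position -121 with the RefSeq start as 0. Kif17 is shown at chr4:138262166-138262195 (plus strand, -73). That window lies inside the deposited Kif17 gene, which begins at chr4:138250435. Kif3a is shown at chr11:53567259-53567288 (plus strand, -98) and Ift140 at chr17:25015965-25015994 (plus strand, -109, the core read on the opposite strand). In Ift27 the core begins at position -9, and in Bbs1, Bbs5, Ift172, Ift88, Nphp4 and Wdr35 it begins at or after the start.

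Levels are given as CPM, counts scaled to the TMM-adjusted library size, and per kilobase of the deposited gene length where genes are compared with each other. In vehicle retina Tulp1, a tubby-family protein of photoreceptors needed for the transport of proteins to the outer segment, stood far above the rest at 980.5 ± 116.9 CPM per kb (SD, n = 5). It was followed by Rpgrip1, which anchors the RPGR protein in the connecting cilium, at 105.3 ± 11.4 CPM per kb. Over all 10 libraries Tulp1 alone made up a mean of 45.2% of the summed CPM of the 34 genes. The 7 core BBSome genes formed a narrow band below these, from 24.1 CPM per kb for Bbs1 to 50.7 for Bbs7, a 2.10-fold range. The 10 IFT-B genes ranged 7.66-fold, from 6.17 CPM per kb for Ift88 to 47.2 for Ift20, whose protein also sits at the Golgi, and the 6 IFT-A genes from 4.10 for Ttc21b to 21.6 for Ift43. Levels per length do not separate isoforms, and a short deposited length raises the value, as for Ift43 at 775 bases. Merged exons in GENCODE M21 can be much longer than the deposited length. They span 2864 against 1012 bases for Ift27, 2802 against 2248 for Ift52 and 6664 against 2179 for Tulp1.

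**Figure D1:**
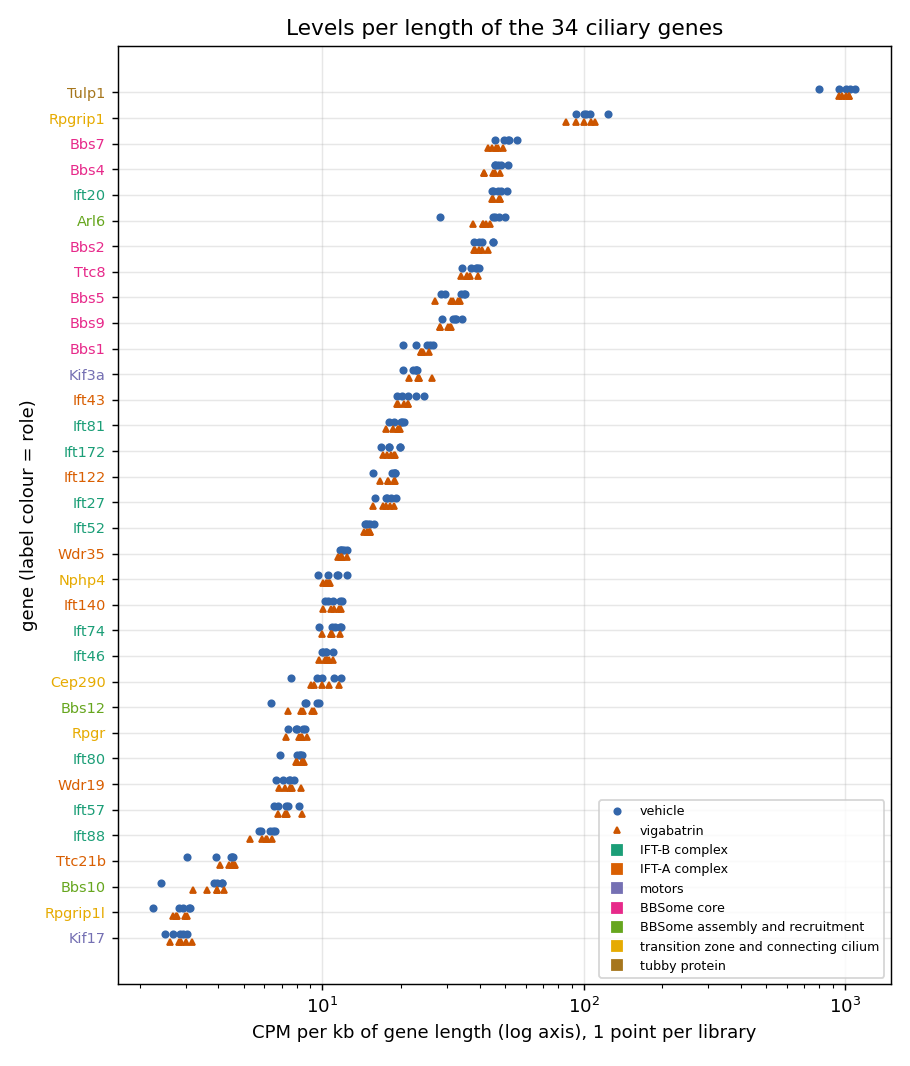
Level per length of each of the 34 genes (horizontal log axis, CPM per kb) in 5 vehicle libraries (circles) and 5 vigabatrin libraries (triangles), with genes in the order of their vehicle mean and label colours for role. Tulp1 and Rpgrip1 stand apart at the top, the BBSome core genes lie together between 24.1 and 50.7, and the points of the 2 groups overlap for every gene shown.

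The order of levels was much the same in both groups. Of the 34 genes, 24 held the same place by group mean after vigabatrin as in vehicle, 8 moved by 1 place and 2 (Ift20 and Nphp4) by 2 places. Neighbours in this order were often not separable: in vehicle, 25 of the 33 neighbouring pairs differed by less than the sum of their SDs, among them Bbs7 and Bbs4 (50.7 and 47.6 CPM per kb), Ift172 and Ift122 (18.5 and 18.2) and Rpgrip1l and Kif17 (2.85 and 2.80). On the deposited lengths, the 8 gaps beyond that spread were those below Tulp1, Rpgrip1, Ttc8, Bbs9, Ift27, Ift52, Ift57 and Ift88. The SDs hold only the variation between libraries, and the gaps were not tested with other gene lengths. Against all tested genes, whose median was 5.87 CPM per kb in vehicle, Tulp1 lay at the 99.9th percentile, Bbs7 at the 93.8th and Kif17 at the 36.4th.

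None of the 34 genes passed the test between vehicle and vigabatrin. With edgeR's quasi-likelihood test and Benjamini-Hochberg adjustment over all tested genes, 0 of 34 had an adjusted p under 0.05, the smallest being 0.611 for Bbs7, where 1 of 17435 genes passed (0.00574%). DESeq2's Wald test and limma-voom with quality weights also called 0 of the 34. At an unadjusted p under 0.05 there was 1 of 34, Bbs7, against a background of 7.36% of all tested genes (3.69% lower after vigabatrin and 3.68% higher). The vehicle and vigabatrin libraries overlapped for all 34, where 1.48% of tested genes did not overlap (0.631% lower). In whole retina, fewer cells of a type and less RNA per cell cannot be told apart.

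The intervals of the fit bound the differences, in a model that held only the group. Each member had between 311 and 115109 counts in each library, and the standard error of the log2 fold change ranged from 0.034 for Wdr35 to 0.142 for Bbs10. For 31 of the 34 genes the 95% interval of the difference lay within 25% higher and 20% lower (the same fold in each direction), compared with 57.4% of all tested genes and with 86.0% of the 10317 tested genes in the same range of mean CPM. The 3 others were Ttc21b (0.927-fold to 1.27-fold), Bbs10 (0.826-fold to 1.27-fold) and Arl6 (0.783-fold to 1.15-fold), and all 34 intervals lay within 1.5-fold. Fitted log2 fold changes (vigabatrin against vehicle) ran from -0.14 for Bbs7 to 0.12 for Ttc21b. Their median was -0.013, against -0.001 for all tested genes and -0.006 for those in the same range of mean CPM. Lower means were found for 21 members and higher means for 13. Among all tested genes 50.6% had a lower mean, and among those in the same range of mean CPM 53.2%. With upper quartile scaling the split was 17 and 17, and with limma-voom 26 lower and 8 higher.

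**Figure D2:**
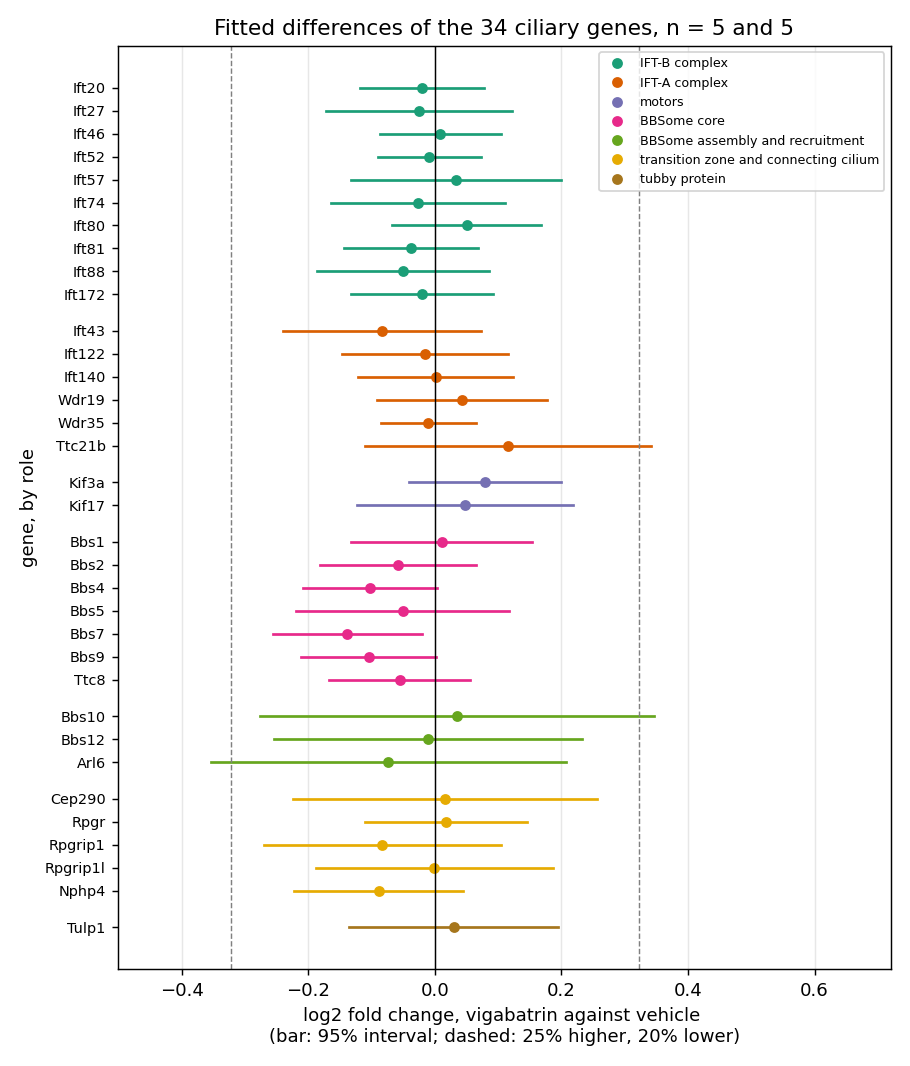
Fitted log2 fold change of each gene (vigabatrin against vehicle, 5 libraries each) with its 95% interval, grouped by role, and dashed lines at 25% higher and 20% lower. Every interval crosses 0 except that of Bbs7 (-0.26 to -0.02), and those of Ttc21b, Bbs10 and Arl6 reach past a dashed line.

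Intraflagellar transport genes showed no called difference in either complex. Ift20, the IFT-B gene with the highest level per length, measured 54.7, 52.7, 59.6, 56.3 and 52.3 CPM in vehicle 832, 835, 1580, 1582 and 2345. After vigabatrin it measured 52.6, 55.2, 56.0, 56.0 and 51.9 CPM in libraries 2344, 2347, 2349, 2428 and 2429. The vigabatrin values lay within the vehicle range but for library 2429, just below it, and the log2 fold change was -0.02 (SE 0.04, adjusted p = 0.95, edgeR).

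Ift80, an IFT-B subunit mutated in a skeletal ciliopathy, had the smallest p of its complex. Its vehicle values were 63.5, 52.3, 61.0, 62.6 and 62.6 CPM in the same library order, and its vigabatrin values 60.4, 63.4, 63.5, 64.7 and 60.7 CPM. Vehicle 835 stood alone at the low end and the other 9 libraries lay between 60.4 and 64.7 CPM, with a log2 fold change of 0.05 (SE 0.05, adjusted p = 0.889, edgeR). Ift88, whose mutation in the Tg737 mouse shortens outer segments, measured 27.8, 24.2, 26.6, 27.2 and 24.5 CPM in vehicle. After vigabatrin it measured 22.3, 25.7, 24.9, 27.1 and 25.8 CPM, with the groups intermixed except for a low vigabatrin 2344, and its log2 fold change was -0.05 (SE 0.06). The remaining IFT-B genes, Ift27, Ift46, Ift52, Ift57, Ift74, Ift81 and Ift172, had log2 fold changes between -0.04 for Ift81 and 0.03 for Ift57. Of the 10 IFT-B genes 7 had lower means, with a median of -0.02 that was 0.003 without vehicle 1580 and 1582 and 0.007 in a fit with a term for title number range, and each of the 10 intervals lay within 25% higher and 20% lower.

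Of the 6 IFT-A genes 3 had lower and 3 higher means, with a median of -0.004 (0.008 with upper quartile scaling). This split depended on the libraries: 5 of 6 were lower without the 4 lens-rich libraries (median -0.055) and with the title range term (-0.042), and 5 of 6 were higher without vigabatrin 2347 (0.023). Ift43, a small subunit, measured 16.4, 15.7, 18.9, 17.6 and 14.96 CPM in vehicle and 15.1, 16.5, 16.5, 14.98 and 15.9 CPM after vigabatrin, lying highest in vehicle 1580 and 1582 and intermixed elsewhere. Its log2 fold change was -0.08 (SE 0.07, adjusted p = 0.844, edgeR). It was 0.077 in a fit with a term for title number range (below or above 2000), in which vehicle 2345 is the single control in the range that holds all vigabatrin libraries. Ttc21b, which encodes the subunit IFT139, had the highest fitted fold change of the 34 genes at 0.12 (SE 0.10, adjusted p = 0.855, edgeR). Its vehicle values of 25.9, 17.6, 26.2, 22.8 and 26.5 CPM held 1 low library, vehicle 835, and its vigabatrin values of 25.6, 23.6, 26.6, 26.2 and 26.9 CPM lay within the vehicle range but for libraries 2349 and 2429, just above it. Without vehicle 835 its log2 fold change was 0.024. It was -0.041 when the 4 lens-rich libraries (vehicle 835 and 1582, vigabatrin 2344 and 2429) were left out. Ift122, Ift140, Wdr35 and Wdr19, the large subunits with WD repeats, had log2 fold changes of -0.02, 0.001, -0.01 and 0.04.

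The 2 motor genes had higher means after vigabatrin, neither called. Kif3a, a subunit of the heterotrimeric kinesin-2, measured 73.0, 64.2, 72.01, 70.4 and 72.4 CPM in vehicle and 83.0, 67.7, 73.8, 73.2 and 74.2 CPM after vigabatrin. Vigabatrin 2344 was the highest of the 10 libraries and vehicle 835 the lowest, and the log2 fold change was 0.08 (SE 0.05, adjusted p = 0.797, edgeR). Without the 4 lens-rich libraries, which include both of these, it was -0.017. Kif17, a homodimeric kinesin-2 present in photoreceptors, had the lowest vehicle level per length, not separable from that of Rpgrip1l. It measured 10.1, 9.82, 10.5, 9.27 and 8.58 CPM in vehicle. After vigabatrin it measured 10.9, 9.02, 10.3, 9.94 and 9.73 CPM, within the vehicle range but for library 2344 (log2 fold change 0.05, SE 0.08).

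Core BBSome genes held the lowest fold changes of the 34, though none passed. Bbs7 measured 148.9, 122.8, 137.5, 139.1 and 132.8 CPM in vehicle 832, 835, 1580, 1582 and 2345, a mean of 136.2 ± 9.51 (SD, n = 5). After vigabatrin it measured 119.5, 132.5, 124.4, 126.6 and 115.9 CPM in libraries 2344, 2347, 2349, 2428 and 2429, a mean of 123.8 ± 6.41. All vehicle libraries but 835 lay above all vigabatrin libraries, and vehicle 835 lay inside their range. The log2 fold change was -0.14 (SE 0.05, 95% interval -0.26 to -0.02), with an unadjusted p of 0.0252 and an adjusted p of 0.611 (edgeR). It stayed between -0.179 and -0.102 in the 26 alternative analyses, with a smallest adjusted p of 0.233 (limma-voom with quality weights).

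Bbs9, known as a scaffold subunit, measured 119.4, 112.3, 110.9, 100.7 and 113.2 CPM in vehicle and 98.3, 108.4, 105.3, 107.2 and 98.5 CPM after vigabatrin. The 4 highest values were those of vehicle 832, 2345, 835 and 1580, while vehicle 1582 lay among the vigabatrin libraries, and the log2 fold change was -0.10 (SE 0.05, adjusted p = 0.684, edgeR). Bbs4, which links the BBSome to the pericentriolar material, had almost the same difference, from 121.1 ± 5.59 CPM in vehicle to 112.7 ± 6.89 CPM in the vigabatrin group (SD, n = 5), a log2 fold change of -0.10 (SE 0.05, adjusted p = 0.684, edgeR). Bbs4 and Bbs9, like Bbs7, had a log2 fold change under -0.1, as did 18.8% of all tested genes. Bbs2, Ttc8 and Bbs5 measured -0.06, -0.06 and -0.05, and Bbs1 measured 0.01 with vehicle values from 113.5 (library 835) to 148.0 CPM (library 2345). So 6 of 7 core genes had lower means, with a median of -0.06, and 0 of 7 passed.

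The summed CPM of the 7 core genes was 808.9, 696.9, 787.4, 748.9 and 755.4 in vehicle and 685.0, 754.5, 736.3, 740.5 and 694.6 after vigabatrin. The lowest values came from vigabatrin 2344, vigabatrin 2429 and vehicle 835, which are 3 of the 4 lens-rich libraries, and all 7 genes lay below their mean over the 10 libraries in vigabatrin 2344 and in vigabatrin 2429. Without the 4 lens-rich libraries all 7 genes had lower means, with a median of -0.07. Without vehicle 1580 and 1582 together 5 of 7 had lower means, with a median of -0.033, and in the fit with a term for title number range 5 of 7, with a median of -0.051. None of the 7 was called in any of these fits.

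**Figure D3:**
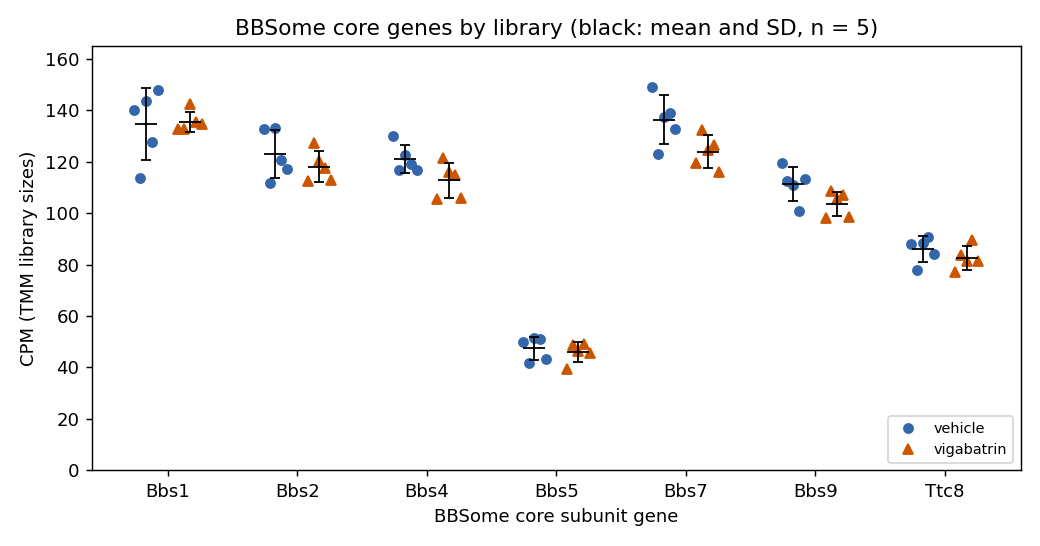
CPM of the 7 core BBSome genes in each vehicle library (circles) and each vigabatrin library (triangles), with the mean and SD of the 5 libraries in black. For Bbs7, 4 of the 5 vehicle libraries lie above all vigabatrin libraries and 1, vehicle 835, lies among them at 122.8 CPM, and for Bbs9 the 1 vehicle library among them is 1582 at 100.7 CPM.

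The 3 genes for BBSome assembly and recruitment had the widest spread of the roles, with a median coefficient of variation within groups of 12.7%. Arl6, the small GTPase that brings the BBSome to membranes, measured 80.2, 47.8, 77.8, 76.3 and 85.2 CPM in vehicle and 63.9, 74.0, 69.6, 71.8 and 69.7 CPM after vigabatrin. Vehicle 835 was the lowest of the 10 libraries and the other 4 vehicle libraries were the highest. The log2 fold change was -0.07 (SE 0.13, adjusted p = 0.934, edgeR), and without vehicle 835 it was -0.194 with an adjusted p of 0.316. Bbs10, a chaperonin-like protein for BBSome assembly, measured 10.9, 6.66, 11.3, 11.4 and 10.6 CPM in vehicle and 8.80, 9.97, 11.6, 10.9 and 10.9 CPM after vigabatrin, again with vehicle 835 at the bottom. Its log2 fold change was 0.04 (SE 0.14), and -0.085 without vehicle 835. Bbs12, a further chaperonin-like gene, measured -0.01 (SE 0.11), and -0.102 without that library.

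At the transition zone and connecting cilium 0 of 5 genes were called, with a median of -0.001 (0.012 with upper quartile scaling). Rpgrip1 measured 976.0, 733.6, 794.1, 807.2 and 837.0 CPM in vehicle and 793.6, 676.1, 734.2, 872.0 and 840.6 CPM after vigabatrin. The highest library was vehicle 832 and the lowest vigabatrin 2347, with the others intermixed, for a log2 fold change of -0.08 (SE 0.09, adjusted p = 0.884, edgeR). Nphp4, a scaffold of the transition zone, measured 57.9, 48.3, 62.5, 57.1 and 52.8 CPM in vehicle and 52.0, 53.6, 50.8, 52.4 and 53.2 CPM after vigabatrin. Its vigabatrin values all lay inside the vehicle range, which was much wider (SD 5.37 against 1.11), and its log2 fold change was -0.09 (SE 0.06, adjusted p = 0.797, edgeR). Cep290, mutated in Leber congenital amaurosis, measured 0.02 (SE 0.11), Rpgr, mutated in X-linked retinitis pigmentosa, 0.02 (SE 0.06), and Rpgrip1l, a Joubert syndrome gene, -0.001 (SE 0.09). Without vehicle 835 all 5 had lower means, with a median of -0.074. Tulp1 measured 2210, 1731, 2393, 2072 and 2277 CPM in vehicle and 2253, 2253, 2194, 2129 and 2078 CPM after vigabatrin, within the vehicle range throughout (log2 fold change 0.03, SE 0.07, adjusted p = 0.956, edgeR).

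Vehicle 835 lay low for most members. Across the 34 genes the coefficient of variation within a group, averaged over both groups, had a median of 6.58%, from 2.65% for Wdr35 and 2.77% for Ift52 to 13.1% for Cep290 and 14.98% for Bbs10, where the 10317 tested genes of like level had a median of 6.34%. In vehicle 835, 30 of the 34 genes lay below their mean over all 10 libraries, with a median deviation of -0.13 on the log2 scale, and 16 of the 34 had their lowest value there, where 27.5% of all tested genes did. Bbs10, Arl6, Ttc21b, Bbs12 and Cep290 were the furthest below in the plot of deviations, while Ift57, Bbs9, Kif17 and Bbs4 were not below their mean. In vigabatrin 2344, also lens-rich, 24 of 34 lay below their mean, and in vigabatrin 2429 and vehicle 1582, the other lens-rich libraries, 20 and 10 did. In vehicle 832 only 4 of 34 did. The share of all tested genes below their mean in each library was not computed, so these counts lack a background.

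**Figure D4:**
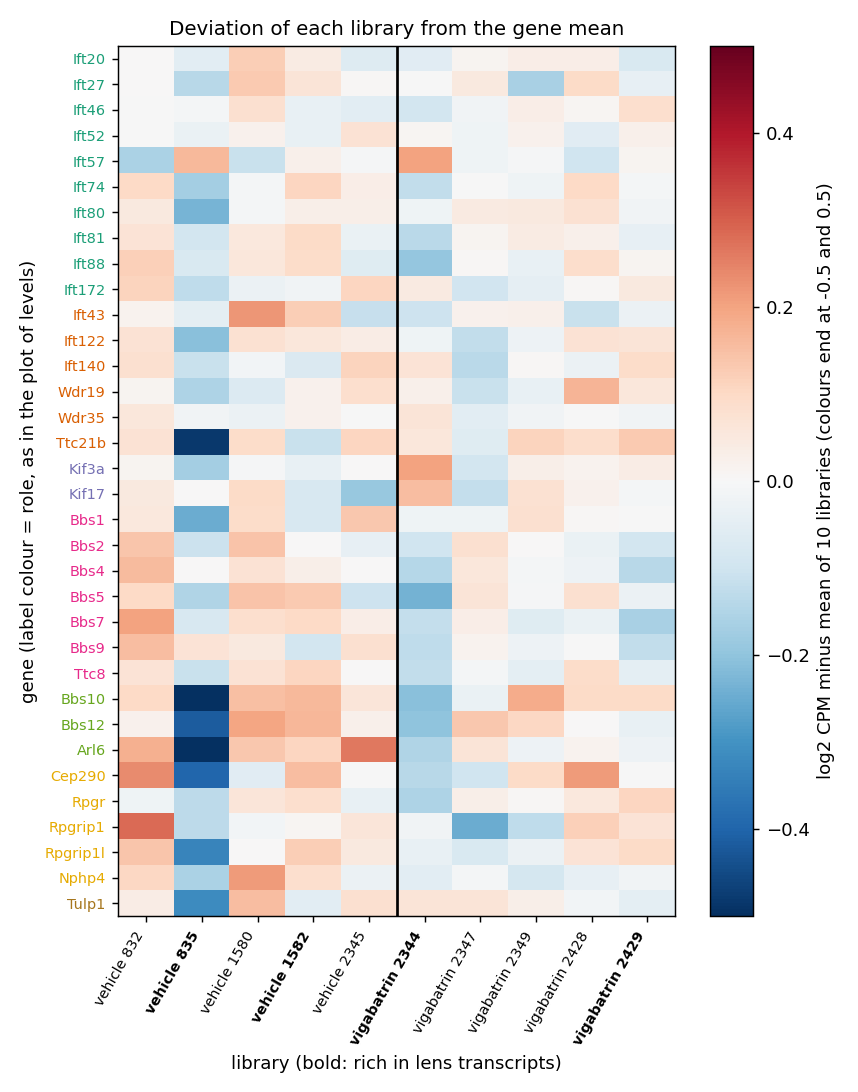
Log2 CPM of each gene in each library minus its mean over the 10 libraries (colour, ending at -0.5 and 0.5), vehicle libraries left of the black line and lens-rich libraries in bold. The column of vehicle 835 is blue for 30 of 34 genes. Of the 7 BBSome core genes, 0, 5, 0, 2 and 2 lie below their mean in the vehicle columns from left to right. In the vigabatrin columns 7, 2, 5, 4 and 7 do. For every gene the vehicle and vigabatrin libraries overlap.

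Markers of other tissues and cell types varied between libraries. The share of lens markers in the counts was 2.15% in vehicle 835, 1.47% in vehicle 1582, 2.21% in vigabatrin 2344 and 1.95% in vigabatrin 2429, and no more than 0.111% in the remaining 6 libraries. Summed markers of pigment epithelium and choroid reached 2039 CPM in vehicle 835 and lay between 355.4 and 1064 CPM elsewhere. This list and that of Muller glia share Rlbp1, so their sums are not independent. Summed rod markers were 58720 CPM in vehicle 835, inside the range of the other libraries (55140 to 61830 CPM), and of the 10 rod markers 9 had lower means after vigabatrin, with a median log2 fold change of -0.08 and 0 called (edgeR), 2 of them at an unadjusted p under 0.05, where 7.36% of all tested genes were. Of 8 amacrine markers 6 had higher means and of 8 ganglion cell markers 7, with 3 and 0 at an unadjusted p under 0.05 and 0 called (edgeR). Of 10 cone markers 5 had higher and 5 lower means, with 1, lower, at that p. Of 8 ON bipolar markers 3 had higher and 5 lower means, with 0 at that p. Of 12 markers of pigment epithelium and choroid 10 had lower means, 4 of them at that p. All 4 tested cornea markers had lower means, 3 at that p, and all 14 tested lens markers higher means, 0 at that p. None of these markers was called (edgeR). Of 10 Muller glia markers 6 had higher means, 3 of them at an unadjusted p under 0.05. The other 4 had lower means, 1 of them at an unadjusted p under 0.05, and 0 of the 10 were called (edgeR). The sum of the Muller glia markers was highest in vehicle 835, at 6590 CPM against 5211 to 6024 CPM elsewhere. Markers of multiciliated cells, which could add motile cilium transcripts, summed to between 56.7 and 73.8 CPM over 16 genes, from 59.2 to 69.6 in vehicle and from 56.7 to 73.8 after vigabatrin. The part of these tissues in the members' values was not tested beyond the fits without libraries. Without vehicle 835 27 of the 34 genes had lower means (median -0.066), without the 4 lens-rich libraries also 27 (median -0.038), and with the pigment epithelium level as a term 28 (median -0.046), with 0 called each time. Without vehicle 1580 and 1582 together the balance turned, with 15 lower and 19 higher means (median 0.013) and again 0 called. The share of all tested genes with a lower mean is given for the main fit only, so these counts have no background beside them.

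Further ciliary genes, listed with earlier results of these data known, gave a like picture. Of 78 tested, 48 had lower and 30 higher means, with a median log2 fold change of -0.01 and 0 called in either direction, and 2 higher and 3 lower genes had an unadjusted p under 0.05, where 7.36% of all tested genes did. Only Mks1 did not overlap between the groups, 1 of 78 beside 1.48% of all tested genes. Among 21 other transition zone genes, Mks1, a subunit of the MKS complex, measured 37.4, 38.2, 40.2, 38.8 and 37.2 CPM in vehicle and 32.6, 35.4, 34.9, 33.9 and 33.5 CPM after vigabatrin. All vigabatrin libraries of Mks1 lay below all vehicle libraries, with a log2 fold change of -0.17 (SE 0.04, unadjusted p = 0.00101, adjusted p = 0.365, edgeR), and Anks6, a partner of the inversin compartment, measured 0.19 (SE 0.08). Among 27 axoneme and photoreceptor ciliopathy genes, Whrn, an Usher syndrome scaffold near the connecting cilium, measured -0.18 (SE 0.05) and Tulp3, the relative of Tulp1 that carries receptors into cilia with IFT-A, 0.15 (SE 0.07). Of 15 other subunits and motors of intraflagellar transport, Dync2h1, the heavy chain of the retrograde motor, and Hspb11, IFT25, measured 0.10 and 0.12, and of 8 other BBSome-linked genes Trim32 and Lztfl1 measured 0.06 and 0.04. Of 7 tested ciliary transcription factors 6 had lower means, and those of smallest p were Rfx4 at 0.35 (SE 0.23, under 1 CPM in every library) and Rfx7 at -0.09 (SE 0.07).

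Positions are those of the deposited table, on mm10. Bbs7 (ENSMUSG00000037325) lies at chr3:36573142-36613477 (minus strand), Bbs4 (ENSMUSG00000025235) at chr9:59321966-59353508 (minus) and Bbs9 (ENSMUSG00000035919) at chr9:22475715-22888280 (plus). Arl6 (ENSMUSG00000022722) lies at chr16:59612949-59639391 (minus), Tulp1 (ENSMUSG00000037446) at chr17:28351515-28365182 (minus) and Rpgrip1 (ENSMUSG00000057132) at chr14:52110704-52163546 (plus). In GENCODE M21, on the same build, exons of 9 of the 34 genes overlap exons of another gene. The largest shares were 8.7% of the exon bases of Rpgrip1, with Supt16 on the opposite strand, 7.9% of Ift57, with Gm15518, and 7.6% of Cep290, with 4930430F08Rik, so part of those counts could not be assigned if counting ignored the strand.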

How the data were processed

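Read counts per gene of 10 mouse retina libraries, 5 vehicle and 5 vigabatrin, were analysed by treatment group. The deposited values are raw counts for Ensembl genes. The submitters' processing notes name HTSeq 0.6.1, the build mm10, DESeq2 and edgeR 3.16.5. Which aligner, annotation release and strand setting were used is not given in the sources used here. The gene lengths used are the other values taken from the deposited table. A further 1 count column, matching none of the samples, was left out of every step. Totals were 36056135 to 54052502 counts per library.

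The main test was the quasi-likelihood test of edgeR 4.0.16 (with limma 3.58.1 under R 4.3.3) after filterByExpr and TMM scaling. Its model held only the group, and the threshold was an adjusted p under 0.05. Standard errors are the absolute log2 fold change over the square root of F. DESeq2 1.42.0, limma-voom, other scalings, filters, covariates, a length correction (loess, span 0.3) and left-out libraries served as alternatives. Replicate pairs differed well beyond counting noise. Of each role, values in every library are given for the 2 genes of smallest p and the 1 of highest level per length, and of each further list the 2 of smallest p are named. Other members are given more briefly, and Supt16, Gm15518 and 4930430F08Rik were named for their overlap. Members, roles and lists were chosen with earlier results of these data known. All p-values were adjusted over all tested genes. The promoter window of 1 gene is not reported here.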

Additional observations from a re-analysis of the deposited data

Results flagged for a closer look

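Of 68 groups of 5 libraries examined (34 genes in 2 groups), 5 contained 1 library well separated from its group. By chance 1 in 20 groups would, or about 3.4. Of these 5, 4 were vehicle 835, in each case low. Ift80 measured 52.3 CPM there against 61.0 to 63.5 CPM in the other vehicle libraries, Ift122 69.4 CPM against 82.4 to 84.6 CPM, Bbs10 6.66 CPM against 10.6 to 11.4 CPM, and Arl6 47.8 CPM against 76.3 to 85.2 CPM. Vigabatrin 2349 was high for Bbs1, at 142.3 CPM against 132.7 to 135.4 CPM.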

How the results depend on the processing

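No paired analysis was possible because the vehicle and vigabatrin libraries share no replicate numbers. In all 26 alternative analyses 0 of the 34 genes were called. Of 884 values 779 kept their direction and 105 reversed it, none being called, and the cause was not tested. The 26 include the main fit read at an adjusted p under 0.1, whose fold changes could not reverse. Genes called over the whole table numbered 1, and 0 with library size only, no filter, the title range, lens or pigment epithelium term, the length correction, limma without it (chosen after seeing the data), or without the lens-rich libraries, vehicle 832 and 835, or vehicle 1580 and 1582. DESeq2's Wald test called 85 (34 higher, 51 lower) and limma-voom 3. Leaving out 1 library gave 0 to 39, the latter without vehicle 2345.
Reversed log2 fold changes were as follows. Without the 4 lens-rich libraries: Ift20 0.005, Ift46 -0.001, Ift140 -0.111, Ttc21b -0.041, Kif3a -0.017, Bbs1 -0.072, Bbs10 -0.017, Tulp1 -0.065. Without vehicle 1580 and 1582: Ift20 0.026, Ift27 0.028, Ift43 0.005, Ift122 0.018, Ift140 -0.032, Bbs5 0.022, Bbs12 0.109, Rpgrip1l 0.035. With the title range term: Ift20 0.056, Ift80 -0.002, Ift81 0.016, Ift88 0.038, Ift43 0.077, Ift140 -0.11, Wdr19 -0.059, Ttc21b -0.04, Bbs1 -0.127, Bbs2 0.013, Bbs5 0.082, Bbs10 -0.026, Tulp1 -0.062. With the length correction: Ift20 0.002, Ift52 0.004, Ift140 -0.018, Bbs1 -0.002, Bbs12 0.008. With the pigment epithelium term: Ift46 -0.003, Ift140 -0.019, Bbs1 -0.039, Bbs10 -0.061, Cep290 -0.051, Rpgr -0.004, Tulp1 -0.01. With limma-voom: Ift140 -0.022, Bbs1 -0.027, Bbs10 -0.028, Cep290 -0.037, Tulp1 -0.031. Without vehicle 832 and 835: Ift140 -0.008, Bbs1 -0.044, Bbs10 -0.092, Cep290 -0.015, Rpgr -0.027, Tulp1 -0.043. With upper quartile scaling: Ift52 0.004, Wdr35 0.003, Bbs12 0.003, Rpgrip1l 0.012. With library size only: Ift52 0.0, Rpgrip1l 0.008. With limma and no length correction: Bbs12 0.0, Rpgrip1l 0.007. Rpgrip1l was 0.002 with at least 1 CPM in 5 libraries and 0.0 with the lens term.
Leaving out 1 library in turn gave -0.04 to 0.008 for Ift20, -0.062 to 0.009 for Ift27, -0.015 to 0.031 for Ift46, -0.023 to 0.007 for Ift52, -0.015 to 0.082 for Ift57, -0.069 to 0.001 for Ift74, -0.052 to 0.004 for Ift172, -0.066 to 0.012 for Ift122, -0.026 to 0.033 for Ift140, -0.028 to 0.001 for Wdr35, -0.045 to 0.046 for Bbs1, -0.085 to 0.09 for Bbs10, -0.102 to 0.038 for Bbs12, -0.069 to 0.077 for Cep290, -0.013 to 0.055 for Rpgr, -0.074 to 0.03 for Rpgrip1l and -0.037 to 0.073 for Tulp1. The lowest counts in any library were those of Kif17 (311) and Bbs10 (314), with standard errors of 0.078 and 0.142.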
